A study of Mus musculus with 8 samples.

Results

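The BMP receptor and SMAD genes that carry the oocyte signals GDF9 and BMP15 were followed between input RNA and RNA recovered with an antibody against DCP1A. They are 10 of the 23107 genes in the deposited table, chosen by their place in the pathway: the receptors Bmpr1a, Bmpr1b, Tgfbr1 and Bmpr2, and the SMAD genes Smad1, Smad5, Smad2, Smad3, Smad4 and Smad7. All 10 had at least 125 counts in every library and passed the filter on low counts, which left 14667 genes in all. The labels give the tissue as mouse ovary, and the design text narrows it to cortex at postnatal day 8; strain, genotype and treatment are not stated. The 4 input libraries held total RNA, and the 4 RIP (RNA immunoprecipitation) libraries held RNA recovered with DCP1A, a co-activator of mRNA decapping found in cytoplasmic processing bodies. The study asked which RNAs are bound to DCP1A in primary oocytes. Each library came from whole cortex tissue, so it holds RNA of granulosa, stromal and other cells as well as of oocytes, and fewer cells of a type and less RNA per cell cannot be told apart. The sources do not say whether numbered libraries are separate animals, so the p-values reflect only how these samples spread, which can be technical. These input and RIP libraries were all the samples of the study, and none was labelled as made with a control antibody.

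GDF9 and BMP15 are growth factors of the TGF-beta superfamily that the oocyte secretes and that act on the surrounding granulosa cells. A ligand brings together type II receptors, such as BMPR2, and type I receptors, and the type II kinase activates the type I kinase, which phosphorylates a receptor-regulated SMAD. BMP15 signals mainly through BMPR1B with BMPR2 to SMAD1 and SMAD5, whereas GDF9 signals through TGFBR1 with BMPR2 to SMAD2 and SMAD3. Both branches join at SMAD4, the common partner that enters the nucleus with them, and SMAD7 is an inhibitory SMAD that acts at the type I receptors.

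Libraries held 13098153 to 25757618 counts. Counts of the 10 genes made up 0.137 to 0.158% of a library in input and 0.122 to 0.162% in RIP, so the range of the RIP libraries enclosed that of the inputs. Markers of the expected cells were present in every library: the oocyte list summed to 1231 to 1929 CPM in input and 1331 to 1711 in RIP, the granulosa cell list to 1408 to 3064 and 1742 to 2734, and the stroma and theca list to 4273 to 6703 and 4398 to 8073. Of the 11 oocyte markers Oosp1 was at 0 in 1 library, and no granulosa or stroma marker was at 0 in any. Leukocyte markers were at 9.61 to 16.3 CPM in input and 17.2 to 30.1 in RIP, and the pan-leukocyte gene Ptprc was at 0 in 2 libraries. Surface epithelium markers were at 79.7 to 107 CPM in input and 84.7 to 188 in RIP, endothelium markers at 48.7 to 98.6 and 59.9 to 98.0, and erythroid markers at 19.3 to 55.4 and 21.9 to 44.7. The endothelial marker Emcn was at 0 in input 2, RIP 1 and RIP 2, and at least one of the globin genes Hba-a1 and Hba-a2 was at 0 in every library but RIP 1. Hba-a1 had at most 3 counts in a library and Hba-a2 at most 1, so nearly all of the erythroid sum was Alas2. The part of these differences in the values of the receptor and SMAD genes was not tested.

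None of the 10 genes passed the test between RIP and input. The levels lowest relative to input were those of the receptor genes Bmpr1a, Tgfbr1 and Bmpr2 (log2 fold change -0.41), with Smad1 (-0.40) next to them. The receptor gene Bmpr1b lay on the higher side (0.10). All values are CPM, counts scaled to library size with TMM factors, which allow a gene to be compared between libraries. They are not divided by transcript length, so genes are not ranked against each other. By the quasi-likelihood test of edgeR, adjusted with Benjamini-Hochberg over all 14667 genes, 0 of the 10 were called higher and 0 lower (threshold 0.05), where 0% of all genes were called higher and 0.0409% lower. Without adjustment, the count under 0.05 was 1 of 10, against 7.43% of all genes, and DESeq2 and limma voom also called 0 of the 10. Fold changes were negative for 7 of the 10 and for 51.7% of all genes tested. The median log2 fold change of RIP over input was -0.20, beside -0.02 over all genes tested.

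**Figure D1:**
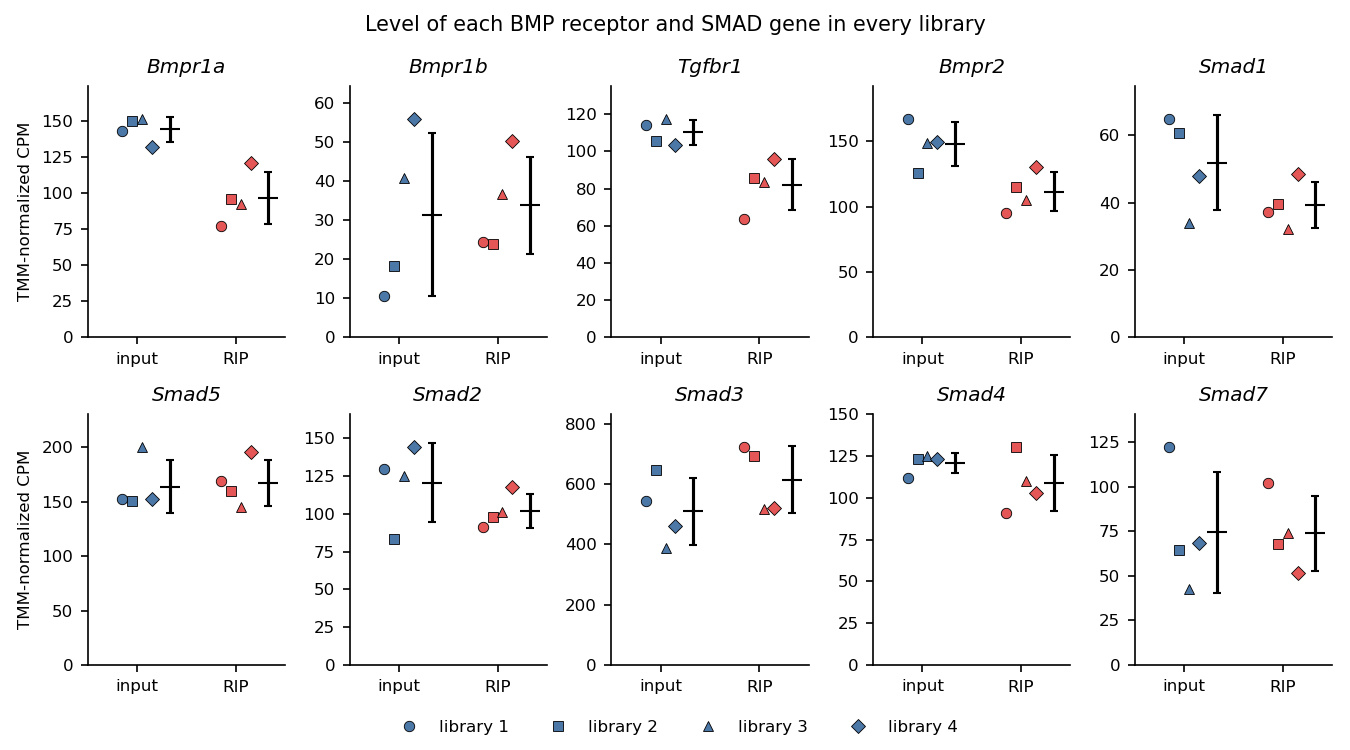
Level of each gene (vertical axis, TMM-normalized CPM, with a separate scale from 0 for each gene) in the 4 input and 4 RIP libraries (horizontal axis); the marker shape gives the library number, and the bar beside each group is the mean with its SD. All RIP points lie below all input points for Bmpr1a and Tgfbr1, and the groups overlap for the other 8 genes.

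Bmpr1a encodes a type I receptor for BMP ligands (mm10 chromosome 14, 34411061 to 34503336). Its level in input libraries 1 to 4 was 142.6, 149.9, 151.4 and 132.0 CPM, and in RIP libraries 1 to 4 it was 76.8, 96.0, 92.3 and 120.7 CPM. Every RIP library lay below every input library, with RIP 4 the nearest. The group means were 144.0 ± 8.9 and 96.4 ± 18.2 CPM (SD, n = 4 each). The log2 fold change was -0.58 ± 0.23 (SE), or a level in RIP of 0.670 times that in input with a 95% interval of 0.480 to 0.936. Over all genes this did not pass (edgeR, unadjusted p = 0.0218, adjusted p = 0.622), and it was rank 501 of 14667 by p. The unadjusted p from edgeR was 0.0553 without RIP 1, 0.0552 without RIP 2 and 0.0625 without RIP 3. Without any other single library it lay between 0.0150 (without RIP 4) and 0.0381 (without input 2). The edgeR value was 0.00647 with libraries 1 and 2 against 3 and 4 as a block, and 0.143 within libraries 3 and 4. Its fold change lay between -0.76 and -0.41 under the 20 alternatives tried, with the lowest adjusted p at 0.176 in edgeR with libraries 1 and 2 against 3 and 4 as a block.

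Tgfbr1, the type I receptor that GDF9 uses (chromosome 4, 47353222 to 47414926), had its RIP libraries in the same order of level. Input libraries 1 to 4 held 114.5, 105.5, 117.6 and 103.4 CPM, and RIP libraries 1 to 4 held 63.5, 85.5, 83.7 and 95.8 CPM. Again the groups did not overlap, RIP 1 was the lowest library and RIP 4 the highest of the RIP libraries. The log2 fold change was -0.42 ± 0.23 (SE, n = 4 each), with a 95% interval of -0.91 to 0.06 that included 0 (edgeR, unadjusted p = 0.0814, adjusted p = 0.707). All RIP libraries lay below all inputs for 2 of the 10 genes, Bmpr1a and Tgfbr1, and for 2.52% of all genes tested. The reverse, with all RIP libraries above all inputs, held for 0 of the 10 and for 2.77% of all genes.

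Bmpr2, the type II receptor shared by both ligands (chromosome 1, 59764279 to 59878081), was at 167.2, 125.6, 149.0 and 149.7 CPM in inputs 1 to 4. In RIP 1 to 4 it was at 95.5, 114.8, 104.8 and 130.2 CPM. Only RIP 4 and input 2 broke the separation, with RIP 4 above input 2. The log2 fold change was -0.41 ± 0.22 (SE, n = 4 each; edgeR, adjusted p = 0.712), close in size to that of Tgfbr1. Its fold change stayed between -0.49 and -0.34 under the 20 alternatives.

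The summed counts of the type I receptor genes Bmpr1a, Bmpr1b and Tgfbr1 were set against those of Bmpr2 within each library, a ratio that does not depend on scaling between libraries. It was 1.60, 2.18, 2.08 and 1.95 in inputs 1 to 4 and 1.72, 1.79, 2.03 and 2.05 in RIP 1 to 4. On the log2 scale the difference between RIP and input was -0.03 ± 0.12 (SE, n = 4 each), and the groups overlapped. The sign of this difference turned when single libraries were left out, with values from -0.13 to 0.02.

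Bmpr1b, the type I receptor through which BMP15 acts (chromosome 3, 141837135 to 142169585), varied more between libraries than any other of the 10 genes. Inputs 1 to 4 held 10.5, 18.3, 40.9 and 56.0 CPM, a 5.33-fold range, and RIP 1 to 4 held 24.4, 24.0, 36.6 and 50.2 CPM, a 2.09-fold range. In both groups libraries 1 and 2 were lower than libraries 3 and 4. The counts behind these values ran from 125 to 1538. Group means were 31.5 ± 20.9 and 33.8 ± 12.4 CPM (SD, n = 4 each), and the log2 fold change was 0.10 ± 0.45 (SE; edgeR, adjusted p = 0.970). Its 95% interval, 0.553 to 2.08 times the input level, was the widest of the 10. The ratio of Bmpr1b to Bmpr1a counts, chosen after the values were seen, was 0.0737, 0.122, 0.270 and 0.425 in inputs 1 to 4 and 0.318, 0.250, 0.397 and 0.416 in RIP 1 to 4. On the log2 scale RIP exceeded input by 0.92 ± 0.59 (SE, n = 4 each) with overlapping groups, by 1.57 within libraries 1 and 2, by 0.26 within libraries 3 and 4 and by 0.49 without input 1.

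The SMADs of the BMP branch were not called either. Smad1 (chromosome 8, 79338395 to 79399428) was at 64.9, 60.8, 33.9 and 48.0 CPM in inputs 1 to 4 and at 37.3, 39.5, 32.0 and 48.4 CPM in RIP 1 to 4. Inputs 1 and 2 stood above all other libraries, and inputs 3 and 4 lay within the RIP range. The log2 fold change was -0.40 ± 0.28 (SE, n = 4 each; edgeR, adjusted p = 0.766), with -0.71 when only libraries 1 and 2 were fitted and -0.03 for libraries 3 and 4. Smad5, the close relative of Smad1 (chromosome 13, 56703010 to 56742378), was at 152.6, 150.5, 200.7 and 152.1 CPM in inputs 1 to 4 and 168.7, 159.5, 145.2 and 195.2 CPM in RIP 1 to 4. Each group had 1 high library, input 3 and RIP 4, and the other 6 libraries lay between 145.2 and 168.7 CPM. Its log2 fold change was 0.03 ± 0.22 (SE, n = 4 each; edgeR, adjusted p = 0.983), and the 95% interval ran from 0.736 to 1.41 times the input level. Its sign turned within libraries 3 and 4 (-0.05).

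Of the SMADs of the GDF9 branch, Smad2 lay on the lower side and Smad3 on the higher side of input, neither past the test. Smad2 (chromosome 18, 76241090 to 76311748) was at 129.7, 83.6, 124.8 and 144.5 CPM in inputs 1 to 4 and at 91.5, 98.1, 100.9 and 117.8 CPM in RIP 1 to 4. Input 2 was the lowest library of all 8, and the other inputs lay above every RIP library. Its log2 fold change was -0.24 ± 0.24 (SE, n = 4 each; edgeR, adjusted p = 0.841), with -0.38 without input 2 and -0.14 without input 4. Smad3 (chromosome 9, 63646766 to 63757994) was at 542.9, 647.8, 390.0 and 461.2 CPM in inputs 1 to 4 and at 725.5, 695.3, 516.4 and 522.3 CPM in RIP 1 to 4. Libraries 1 and 2 were higher than libraries 3 and 4 in both groups. The log2 fold change was 0.27 ± 0.24 (SE, n = 4 each; edgeR, adjusted p = 0.818), and it ranged under the 20 alternatives from 0.17, without input 3, to 0.40, without input 2.

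Smad3 gave 34.4 ± 5.9% of the counts of the 10 genes in input and 42.9 ± 5.8% in RIP (SD, n = 4 each), with ranges of 28.3 to 42.3% and 36.4 to 49.2%. The ratio of Smad1 and Smad5 counts to Smad2 and Smad3 counts, which sets the BMP branch against the GDF9 branch, was 0.323, 0.289, 0.456 and 0.330 in inputs 1 to 4. In RIP 1 to 4 it was 0.252, 0.251, 0.287 and 0.381. The log2 difference was -0.26 ± 0.20 (SE, n = 4 each), the groups overlapped, and the value was -0.12 without input 3 and -0.39 without RIP 4. Smad3 gave most of the counts in the denominator of this ratio.

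Smad4, the partner common to both branches (chromosome 18, 73634790 to 73703791), was at 112.2, 123.5, 125.4 and 123.4 CPM in inputs 1 to 4 and at 90.7, 130.8, 110.3 and 103.2 CPM in RIP 1 to 4. RIP 2 was the highest library of all and RIP 1 the lowest. On the log2 scale the difference was -0.16 ± 0.22 (SE, n = 4 each; edgeR, adjusted p = 0.892), with -0.08 without RIP 1 and -0.25 without RIP 2. Smad7, the inhibitory SMAD (chromosome 18, 75367365 to 75395935), was at 122.5, 64.7, 42.5 and 68.1 CPM in inputs 1 to 4 and at 102.1, 67.7, 74.0 and 51.7 CPM in RIP 1 to 4. Library 1 was the highest in both groups. Its log2 fold change was -0.01 ± 0.32 (SE, n = 4 each; edgeR, adjusted p = 0.995), with a 95% interval from 0.618 to 1.59 times the input level, and its sign turned under upper quartile scaling (0.02).

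**Figure D2:**
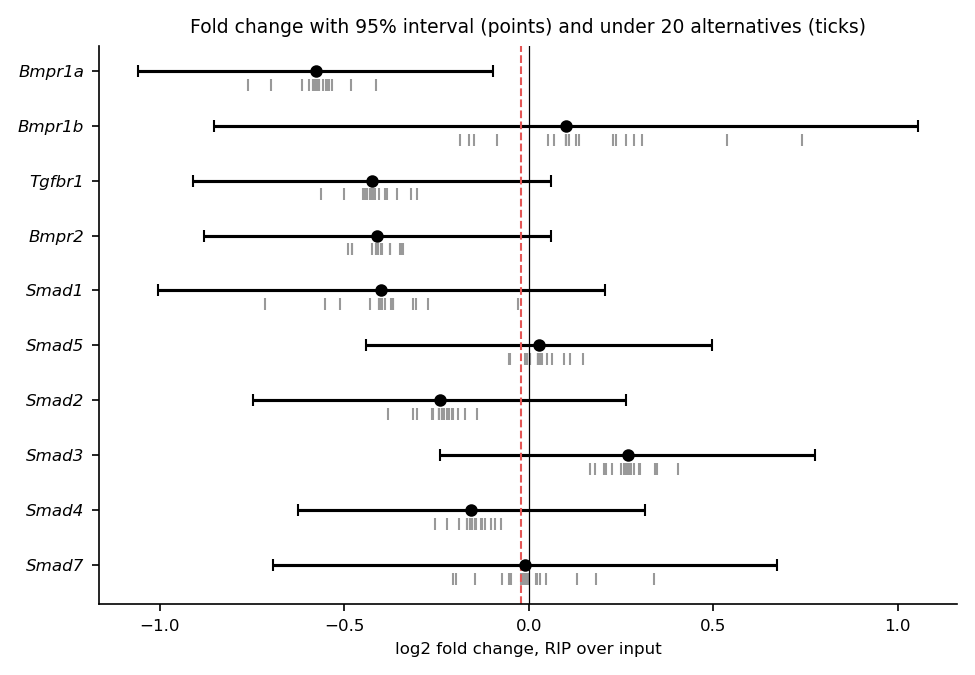
Log2 fold change of RIP over input (horizontal axis) for each of the 10 genes; points are the estimates over 4 libraries a group, lines their 95% intervals, grey ticks the 20 alternatives, and the dashed red line the median of all genes tested (-0.02). Of the 10 intervals only that of Bmpr1a, from -1.06 to -0.10 before adjustment for the number of genes, leaves out 0.

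The genes differed in how steady they were within a group. The coefficient of variation over the 4 input libraries was 4.96% for Smad4, 6.16% for Bmpr1a and 6.20% for Tgfbr1, where the median over the 7334 genes at or above the median level was 31.5%. It was 45.6% for Smad7 and 66.3% for Bmpr1b. In RIP the values for Smad4, Bmpr1a and Tgfbr1 were 15.4, 18.9 and 16.5%, below the median of 22.7%. Smad4, Bmpr1a and Tgfbr1 thus spread more between RIP libraries than between inputs, while Bmpr1b (36.8%) and Smad7 (28.5%) spread less. No test was made of these differences in spread.

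**Figure D3:**
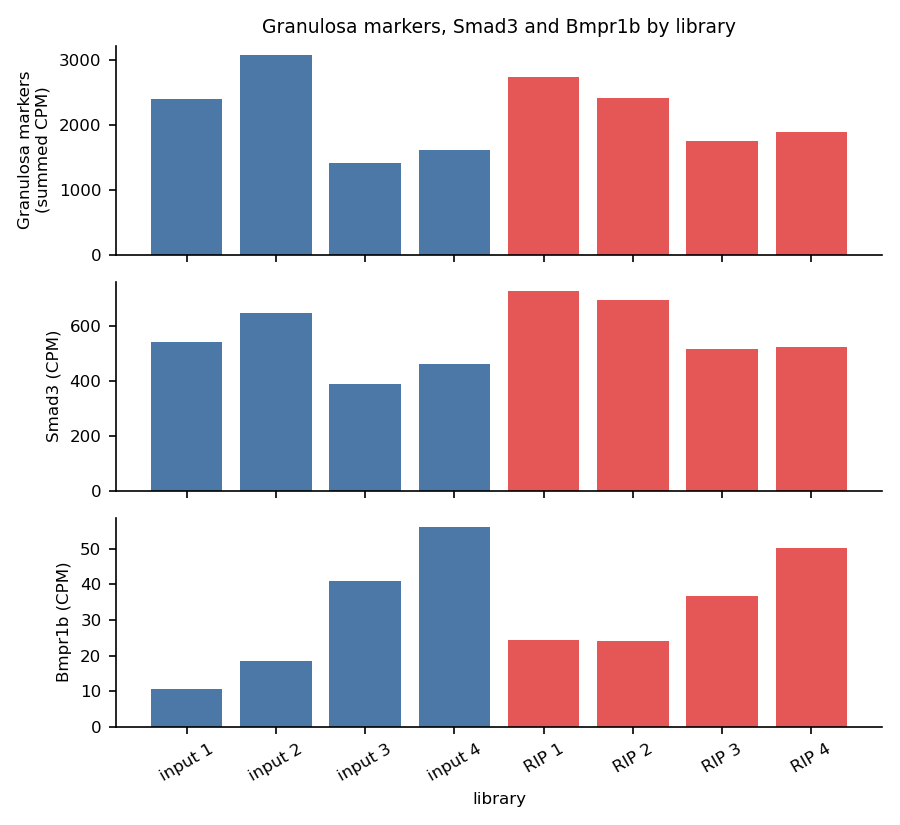
Summed CPM of 10 granulosa cell markers (top), CPM of Smad3 (middle) and CPM of Bmpr1b (bottom) in each library (horizontal axis; blue input, red RIP, 1 bar a library). The granulosa marker sum and Smad3 are higher, and Bmpr1b lower, in libraries 1 and 2 than in libraries 3 and 4 of the same group. The sum of stroma and theca markers, not drawn, was also higher in libraries 1 and 2. Of its markers only the collagen genes Col1a1, Col1a2 and Col3a1 were so in both groups.

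Levels of Smad3 and Bmpr1b differed by library number in both groups, and so did other measures. Granulosa cell markers summed to 2400, 3064, 1408 and 1612 CPM in inputs 1 to 4 and to 2734, 2408, 1742 and 1884 CPM in RIP 1 to 4. Not every marker on that list followed its sum: Esr2 was at 76.4, 75.9, 62.4 and 95.6 CPM in inputs 1 to 4. Stroma and theca markers summed to 6271, 6703, 4273 and 4316 CPM in inputs 1 to 4. In RIP 1 to 4 they summed to 8073, 5756, 4398 and 4869 CPM. Most of this sum came from the collagen genes Col1a1, Col1a2 and Col3a1. No other marker on that list was higher in libraries 1 and 2 in both groups. Pdgfra was at 137.2, 80.8, 211.2 and 149.6 CPM in inputs 1 to 4. It was at 113.2, 131.9, 150.1 and 158.3 CPM in RIP 1 to 4. The 10 largest genes took 30.7, 30.9, 13.0 and 16.6% of the counts of inputs 1 to 4, and 32.0, 25.5, 23.5 and 16.1% of those of RIP 1 to 4. Libraries 1 and 2 were thus the higher ones of their group in both marker sums and in the share of the 10 largest genes. Inputs 1 and 2 held 13098153 and 13142790 counts and inputs 3 and 4 held 25757618 and 25030606. RIP 1 to 4 held 16325387, 21269891, 20199164 and 18658435, so total counts did not divide in this way in RIP. The part of granulosa or stromal cell content, of library composition or of depth in the levels of Smad3 and Bmpr1b was not tested. This grouping by number is not in the labels and was noticed in the data.

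The rest of the pathway gave no call. Of 72 other gene names listed, 62 were tested. The 72 hold both names of 1 gene: Ctgf, which was tested, and Ccn2, which has no row of its own. By edgeR 0 of the 62 were called in either direction, where 0% of all genes were called higher and 0.0409% lower. Of the 62, 1 had an unadjusted p under 0.05, against 7.43% of all genes. The median log2 fold change of the 62 was -0.08, 36 were negative and 26 positive, and none had groups that did not overlap. Of all genes tested, 51.7% were negative, 2.77% had all RIP libraries above all inputs and 2.52% had all below. Among 13 ligand genes tested, with a median of 0.04, Gdf9 itself had a log2 fold change of 0.39 ± 0.29 and Bmp6, a BMP that oocytes make, one of 0.40 ± 0.41 (SE, n = 4 each). Gdf9 was at 160.6, 220.9, 122.3 and 111.0 CPM in inputs 1 to 4 and at 119.3, 266.8, 229.3 and 187.3 CPM in RIP 1 to 4, with RIP 1 inside the input range. Bmp15 averaged 19.2 ± 6.9 CPM in input libraries and 20.5 ± 8.8 in RIP (SD, n = 4 each).

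The 10 other receptor genes tested had a median of 0.03. Acvr1b, a type I receptor for activin, averaged 30.9 ± 11.0 CPM in input libraries and 43.9 ± 6.1 in RIP, and Acvr2a, an activin type II receptor, at 31.6 ± 5.6 and 24.9 ± 6.6 CPM (SD, n = 4 each). Their log2 fold changes were 0.50 ± 0.31 and -0.35 ± 0.31 (SE; edgeR, adjusted p = 0.738 and 0.818). Tgfbr3, the TGF-beta co-receptor betaglycan, was at 139.9 ± 6.6 and 136.3 ± 32.5 CPM and lay outside the naming rule. It was chosen after its values were seen because its input libraries were as close to each other as those of Bmpr1a.

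Other SMADs and regulators of SMADs had a median of -0.18 over 19 genes, with 12 negative. Nedd4l, a ubiquitin ligase that acts on activated SMAD2 and SMAD3, averaged 60.9 ± 23.2 CPM in input libraries and 39.2 ± 12.3 in RIP. Skil, a SMAD co-repressor, was at 62.2 ± 24.4 and 40.0 ± 15.4 CPM (SD, n = 4 each). Both had a log2 fold change of -0.64, with SEs of 0.33 and 0.34 (edgeR, adjusted p = 0.694 and 0.704). The antagonists that bind ligands outside the cell had a median of -0.10 over 12 genes, and the lowest p among them were those of Twsg1 (-0.38 ± 0.23) and Fstl1 (-0.39 ± 0.25). Larger differences with larger errors were those of Nog (-1.03 ± 1.42), Chrdl1 (-0.68 ± 0.49) and Nbl1 (0.47 ± 0.38). Among 8 target genes tested, with a median of -0.27, Kitl had the lowest p. This gene, the granulosa cell ligand of the oocyte receptor KIT, averaged 89.2 ± 18.2 CPM over the inputs and 57.6 ± 13.8 over the RIP libraries (log2 -0.63 ± 0.27; edgeR, unadjusted p = 0.0323, adjusted p = 0.631). Msx1, a homeobox gene that BMP signals induce, was at 3.11, 12.7, 0.443 and 1.79 CPM in inputs 1 to 4 and at 0 to 1.95 CPM in RIP (log2 -1.91 ± 1.24; edgeR, adjusted p = 0.748). Input 2 carried most of its input level. The cumulus expansion genes Has2, Ptx3, Ptgs2 and Tnfaip6 had at most 38 counts in a library and were not tested.

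**Figure D4:**
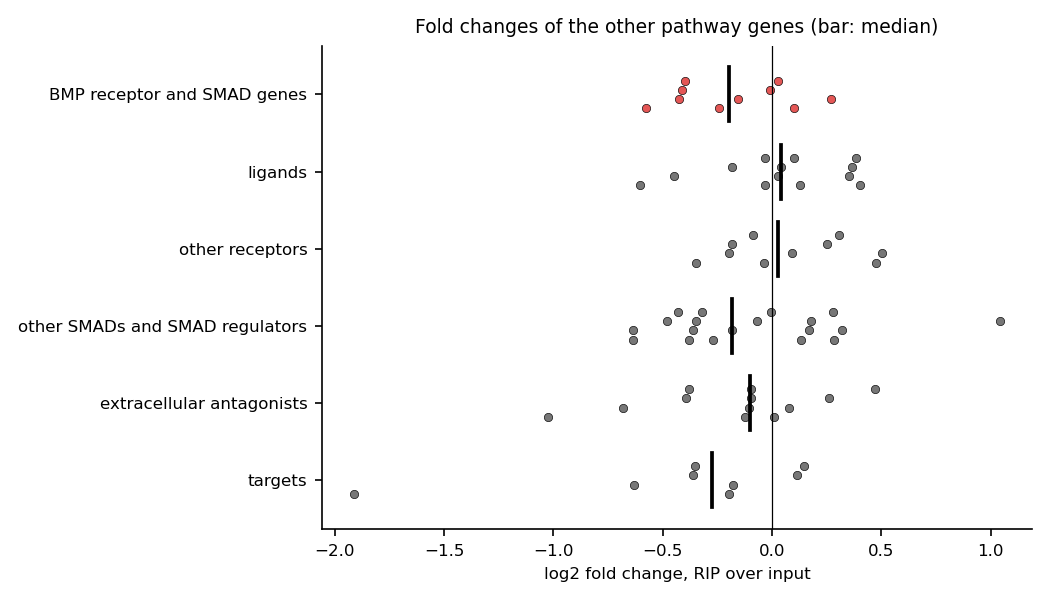
Log2 fold change of RIP over input (horizontal axis) for the 10 BMP receptor and SMAD genes (red) and for the tested genes of 5 other pathway lists (grey); each point is a gene and the bar is the median of its list. Medians run from -0.27 for the targets to 0.04 for the ligands, and the point at -1.91 is Msx1, whose input level was mostly that of input 2.

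The 10 genes did not share one pattern across the 8 libraries. When each gene's log2 CPM was standardised and averaged over the 10, Bmpr2 (Pearson r = 0.97 over 8 libraries), Tgfbr1 (0.90) and Bmpr1a (0.89) lay closest to the average, of which they are a part. Bmpr1b (-0.05), Smad7 (-0.20) and Smad3 (-0.54) did not follow it. Among genes of at least median level outside the 10, those with the most similar profile were Gsk3b (0.97), a kinase; Efnb2 (0.96), an ephrin ligand; Pvrl3 (0.95), now named Nectin3; Csda (0.95), now named Ybx3 and an RNA-binding protein of the Y-box family; and Fam116a (0.94), now named Dennd6a. These correlations are descriptions over libraries of both groups, picked as the highest of all genes. Gsk3b averaged 181 ± 20 CPM in input libraries and 119 ± 35 in RIP, and Csda averaged 169 ± 17 and 120 ± 16 (SD, n = 4 each). The 5 genes had log2 fold changes from -0.62 to -0.44, and none passed edgeR's test (adjusted p from 0.622 to 0.712).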

How the data were processed

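Per the submitters' processing notes, mm10 was the genome build. Names of an aligner, counter and annotation were not given in the sources used here. Per the labels' protocols, bound RNA was isolated using the Magna RIP kit, and libraries were made with a SMARTer Stranded Total RNA-Seq kit. Whether counting used strand is not given. The authors deposited estimated counts (expected counts), of which at most 1.85% per library were not whole at a tolerance of 1e-09. They were rounded. All values of the 10 genes were whole.

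Groups were taken from the sample titles. All 14667 genes that passed filterByExpr (minimum count 10, minimum total 15) were fitted together in edgeR 4.0.16 (R 4.3.3) with TMM factors, robust quasi-likelihood tests and a Benjamini-Hochberg threshold of 0.05, tested on simulated data. The standard error is the absolute log2 fold change over the square root of the F statistic, and 95% intervals use it with the t distribution. Alternatives were other scalings, DESeq2 1.42.0, limma 3.58.1 voom, 2 other filters, blocks, subsets and leaving out each library. Correlations of deviations between same-numbered libraries were 0.162, 0.0915, 0.178 and 0.118, all positive. Those between libraries of different numbers ran from -0.252 to 0.269. These values do not settle whether the numbers are pairs. The labels state no pairing, so the main fit took none, and the number was a block among the alternatives.

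The 10 genes and all lists were chosen with earlier results of these data known. The text names all 10, the 2 genes of lowest p in each pathway list and the 5 most similar genes. Outside this rule it names Bmp15, Tgfbr3, Nog, Chrdl1, Nbl1, Has2, Ptx3, Ptgs2, Tnfaip6 and single cell type markers. Coordinates are 1-based spans from RefSeq on GRCm38.p6, the assembly of mm10. Annotated lncRNA genes not in the table overlap the spans of Tgfbr1, Smad3 and Smad7. Overlap of exons was not examined, and whether lncRNA reads were counted to these genes is not known.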

Additional observations from a re-analysis of the deposited data

Results flagged for a closer look

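A pair of values stood far from the other libraries of their group, among 26 groups of 4 values checked at a level where chance flags about 1 in 20. Smad5 was at 200.7 CPM in input 3, where the other inputs lay between 150.5 and 152.6 CPM. Smad4 was at 112.2 CPM in input 1, where the other inputs lay between 123.4 and 125.4 CPM. Without input 3 the log2 fold change of Smad5 was 0.15, and without input 1 that of Smad4 was -0.19, and neither gene passed edgeR's test in these fits.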

How the results depend on the processing

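None of the 10 genes passed under any of the 20 alternatives tried, and their median log2 fold change, -0.20, ranged from -0.24 to -0.14. Each alternative moved it from its main value by less than the SD between libraries of the genes' median log2 level, 0.097. The fold changes of Bmpr1a, Tgfbr1, Bmpr2, Smad1, Smad2 and Smad4 stayed negative and that of Smad3 positive in all 20. Bmpr1b turned to -0.16 within libraries 3 and 4, Smad5 to -0.054 and Smad7 to 0.18. Smad7 was at 0.021 under upper quartile scaling and at 0.022 with libraries 1 and 2 against 3 and 4 as a block. Leaving out 1 library at a time gave -0.19 to 0.54 for Bmpr1b, -0.052 to 0.15 for Smad5 and -0.20 to 0.34 for Smad7; the cause was not tested.

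Over all genes, edgeR called 0 higher and 6 lower. With the replicate number as a block it called 13 higher and 42 lower, and Smad7 was at 0.048; the block changed no call among the 10 genes. Of the input libraries only input 1 correlated best with the RIP library of its own number. Input 2 did so with RIP 1, input 3 with RIP 4 and input 4 with RIP 3. Counts were 12 and 43 with libraries 1 and 2 against 3 and 4 as a block, 3 and 24 within libraries 1 and 2, and 13 and 43 by DESeq2. Without 1 library they were 0 to 1 higher and 4 to 16 lower, with 15 lower without input 3 and 16 without RIP 1. Over all genes tested, standard errors on the log2 scale had a median of 0.396, and those of the 10 genes lay between 0.22 and 0.45.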
